A study of Mus musculus with 96 samples.

Results

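The hippocampus and the hypothalamus of uninjured mice without candesartan were compared across all measured genes. The aim was to describe how both brain regions differ before injury or candesartan is added. The comparison uses every hippocampus and hypothalamus library of the Sham + VH group at 3 dpi (days post-injury). These are 4 libraries per region, 8 of the 96 in the study. They were taken by label, with earlier results of these data known. The mice were male C57BL/6, 8 to 10 weeks old and without any transgene. Sham mice were anesthetized with isoflurane and had the scalp incised, with no craniectomy and no impact. VH (vehicle) was saline with sodium carbonate, injected intraperitoneally at 6, 24 and 48 h. Before perfusion all mice were anesthetized with ketamine and xylazine. Tissue was dissected from the side that was struck in the injured mice after saline perfusion, and the 4 RNAs of highest quality per group were sequenced as poly(A) RNA. The sources do not say whether libraries with the same replicate number came from the same mouse, so p-values measure the spread between these libraries. The 4 thalamus libraries of the same Sham + VH group at 3 dpi, and the 8 hippocampus and hypothalamus libraries of a second Sham + VH cohort killed at 29 dpi, are used beside them. The 29 dpi mice had an injection at 6 h and then an osmotic pump with vehicle.

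The hippocampus is part of the telencephalon and is built mostly of glutamatergic neurons, the pyramidal cells of the CA fields and the granule cells of the dentate gyrus, whose synapses are the textbook model of activity-dependent plasticity in learning. The hypothalamus lies at the floor of the third ventricle and is a mosaic of small nuclei. Its neurons make peptide hormones and neuropeptides that control the pituitary, water balance, feeding, sleep, reproduction and body temperature, and many of them release GABA. Its ventricle wall carries ciliated ependymal cells and tanycytes, the elongated glia that contact the median eminence.

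Libraries held 24211032 to 27452743 counts in the hippocampus and 26898537 to 31253784 counts in the hypothalamus. Levels are given as CPM, the usual unit of counts relative to the library total, here scaled by TMM. Fold changes are the log2 of hippocampus over hypothalamus, so a positive value is higher in the hippocampus. A level carries its SD over 4 libraries, and a log2 fold change its standard error from the fit. The defining genes of each labelled region, such as Neurod6 and Slc17a7 for the hippocampus and Otp and Nkx2-1 for the hypothalamus, were present in its 4 libraries and low or absent in the 4 of the other region. Lists of marker genes also showed that some libraries stand apart. Hippocampus replicate 3 held far less choroid plexus RNA than the other hippocampus libraries. Hypothalamus replicates 1 and 2 held more myelin RNA and less RNA of ciliated cells, tanycytes and some arcuate peptides than replicates 3 and 4. Hypothalamus replicate 4 and, to a lesser degree, hippocampus replicate 4 held pituitary hormone RNA. Their values stand beside the results they touch.

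Of 16660 genes tested, 3675 (22.1%) were called higher in the hippocampus and 3965 (23.8%) higher in the hypothalamus, 45.9% in all. Counts of list members below are to be read beside these shares. A gene was called when its adjusted p was under 0.05 and its levels differed by over 0.32 on the log2 scale, which is 1.248-fold. The split depends on the scaling. With library totals alone the median log2 fold change over all genes tested was -0.191, against -0.02 with TMM, and the calls were 2599 and 5753. All values below are on the TMM scale, and 7063 of the 7640 called genes (92.4%) had no overlap between the 4 libraries of each region, against 8834 (53%) of all genes tested. A log2 fold change above 1 was called for 1362 genes (8.18%) higher in the hippocampus and 1526 (9.16%) higher in the hypothalamus, and above 3 for 225 (1.35%) and 244 (1.46%). In bulk tissue fewer cells of a type and less RNA per cell cannot be told apart.

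**Figure D1:**
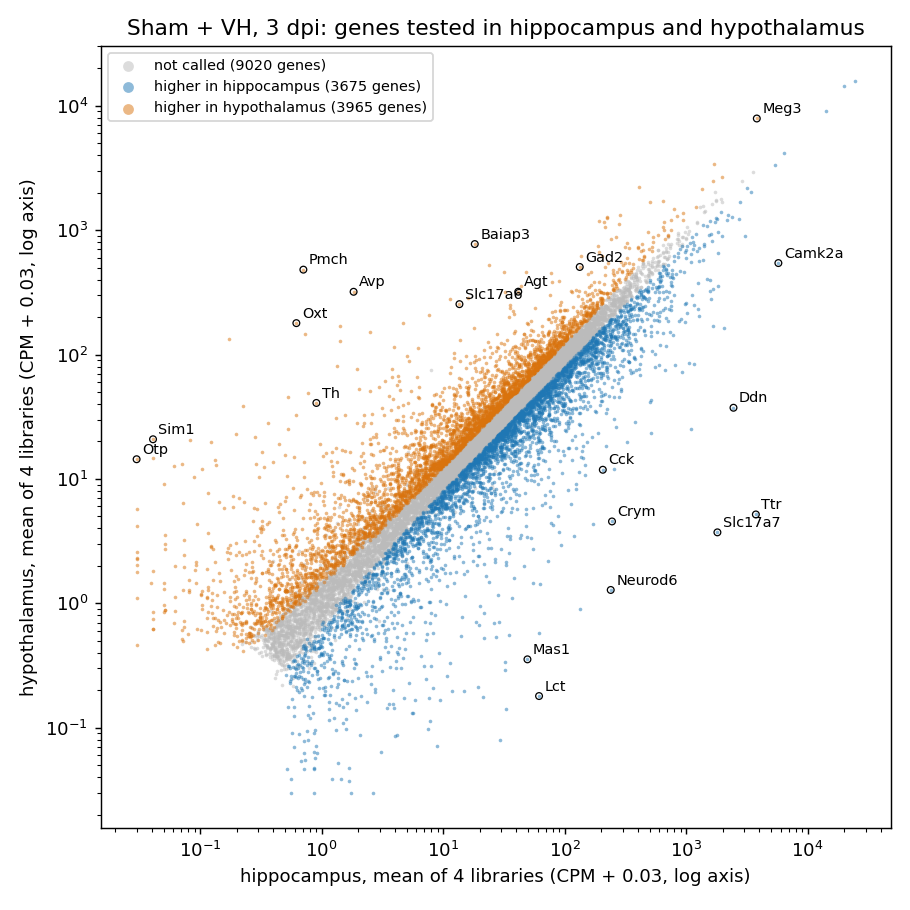
Mean level in the hippocampus (x axis) against the hypothalamus (y axis) of each gene tested, in CPM with a small offset on log axes, 4 Sham + VH libraries per region at 3 dpi. Blue points are the 3675 genes called higher in the hippocampus and orange points the 3965 called higher in the hypothalamus, and the labelled genes range from Slc17a7 and Lct at the lower right to Otp and Sim1 at the upper left.

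With a mean of at least 10 CPM in the hippocampus and no overlap, the 10 largest log2 fold changes belonged to Ttr (9.51), Slc9a4 (9.08), Slc17a7 (8.96), Lct (8.64), Rtn4rl2 (8.17), Neurod6 (7.58), Mas1 (7.29), Neurod2 (7.27), Kcne2 (7.11) and Slc4a5 (6.94). Of these Ttr, Kcne2 and Slc4a5 are choroid plexus genes and were far lower in hippocampus replicate 3. Slc9a4, a sodium-proton exchanger, was at 34.7, 25.6, 29.6 and 28.1 CPM in the hippocampus libraries and 0.070, 0.0357, 0.0598 and 0.0334 CPM in the hypothalamus libraries. Each hippocampus library was well above each hypothalamus library. Rtn4rl2, a receptor of the Nogo receptor family, was at 37.2, 36.4, 28.2 and 28.7 CPM in the hippocampus libraries and 0.070, 0.214, 0.0897 and 0.0668 CPM in the hypothalamus libraries. On the hypothalamic side the largest included Otp, Sim1, Hcrt, Pmch, Foxb1, B230323A14Rik, Oxt, Nr5a1 and Trh, which are transcription factors and neuropeptide precursors except for B230323A14Rik, an RNA annotated antisense to Foxb1. Foxb1 was at 7.63 to 41.5 CPM and B230323A14Rik at 5.99 to 25 CPM in the hypothalamus. Their annotated spans overlap in part on opposite strands of chromosome 9 and the strand handling of the counting is not given, so the reads of the pair may be shared.

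Transcription factors known from the development of the telencephalon were higher in the hippocampus. Of 25 listed factors 21 were called higher in the hippocampus and 1 higher in the hypothalamus, and the median log2 fold change of the list was 3.04 against -0.02 over all genes tested. Neurod6 and Neurod2 are bHLH factors of maturing and mature pyramidal neurons. Neurod6 was at 233, 237, 269.8 and 217 CPM in the hippocampus libraries and 1.54, 1.5, 1.23 and 0.734 CPM in the hypothalamus libraries. Every hippocampus library lay far above the hypothalamus libraries (log2 fold change 7.58 ± 0.16, adjusted p = 1.39e-09). Neurod2 was at 125, 161, 137 and 114 CPM in the hippocampus libraries and 0.805, 1.18, 0.956 and 0.534 CPM in the hypothalamus libraries, with a log2 fold change of 7.27 ± 0.19. Zbtb18, a zinc finger repressor that pyramidal neurons need to mature, had 511 ± 59.8 CPM against 43.2 ± 1.13 CPM and a log2 fold change of 3.56 ± 0.09. Nfix (1.73), Bcl11b (3.5), Bcl11a (2.47) and Mef2c (1.88) were also higher in every hippocampus library than in any hypothalamus library. The factor higher in the hypothalamus was Cux2, which marks upper cortical layers, at 44.6, 36.9, 37.1 and 36.5 CPM in the hypothalamus libraries and 24.2, 27, 23.1 and 29.4 CPM in the hippocampus libraries. Its hypothalamus libraries did not overlap the hippocampus (log2 fold change -0.58 ± 0.09), but the call was not made at 29 dpi, where the value was -0.27.

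Markers of the hippocampal fields were split. Of 25, 17 were called higher in the hippocampus and 7 higher in the hypothalamus, with a median of 1.18. Lct, which encodes lactase, was at 45.7, 76.9, 73.1 and 50.4 CPM in the hippocampus libraries and 0.245, 0.107, 0.179 and 0.0668 CPM in the hypothalamus libraries, and no hypothalamus library reached 1 CPM (log2 fold change 8.64 ± 0.31). Fibcd1, a marker of dorsal CA1, was at 255 ± 27.8 CPM against 12 ± 3.44 CPM (log2 fold change 4.41 ± 0.20). Tdo2, the tryptophan-degrading enzyme of dentate granule cells, was at 7.3, 7.22, 10.4 and 5.38 CPM in the hippocampus libraries and 0.175, 0.214, 0.149 and 0.0334 CPM in the hypothalamus libraries. The difference held in each library, with a log2 fold change of 5.69 ± 0.36. Mpped1 was at 278 ± 22.9 against 45.4 ± 8.71 CPM. Members named for cell types of the hippocampus can be made by other neurons too, and some went the other way. Calb2, the calcium buffer calretinin, was at 277, 282, 234 and 157 CPM in the hypothalamus libraries and 63, 45.2, 74.7 and 43.8 CPM in the hippocampus libraries, and Calb1, calbindin, was at 136, 181, 198 and 217 CPM in the hypothalamus libraries and 115, 111, 139 and 127 CPM in the hippocampus libraries. Calb2 did not overlap (log2 fold change -2.07 ± 0.22), whereas hypothalamus replicate 1 lay inside the hippocampal range for Calb1 (-0.57 ± 0.13). Map3k15 was the other named member higher in the hypothalamus (-1.28 ± 0.13).

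Vesicular glutamate transporters load glutamate into synaptic vesicles and mark separate classes of glutamatergic neurons, and they had opposite regional levels. Slc17a7 encodes VGLUT1, the transporter of cortical and hippocampal neurons, and lies at chr7:45163949-45176142 (mm10). It was at 1957, 1838, 1719 and 1718 CPM in the hippocampus libraries and 8.12, 2.96, 1.46 and 2.2 CPM in the hypothalamus libraries. No hypothalamus library exceeded 10 CPM, and the log2 fold change was 8.96 ± 0.46 (adjusted p = 1.53e-07). Slc17a6 encodes VGLUT2, the transporter of subcortical neurons, at chr7:51622006-51671119. Its levels were 234, 278, 247 and 257 CPM in the hypothalamus libraries and 7.55, 14.7, 20.4 and 11.7 CPM in the hippocampus libraries, a log2 fold change of -4.23 ± 0.24. The 4 libraries of each region were again apart, in the opposite direction. The thalamus, whose relay neurons use VGLUT2, held 549 ± 54.2 CPM of Slc17a6 and 185 ± 41.8 CPM of Slc17a7.

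Glutamate receptors as a list did not favour a region. Of 28 receptors and transporters 12 were called higher in the hippocampus and 10 higher in the hypothalamus, against 22.1% and 23.8% of all genes. The median was 0.20, and with library totals alone the counts were 12 and 13. Among AMPA receptor subunits, Gria1 was at 1270.1 ± 51.5 CPM against 561 ± 23.8 CPM (log2 fold change 1.18 ± 0.06) and Gria2 at 770.4 ± 78.7 CPM against 419 ± 56.1 CPM (0.88 ± 0.11). NMDA receptor subunits went in opposite directions. Grin2a, the subunit of mature forebrain receptors, was at 21.1, 24.8, 25.9 and 22.2 CPM in the hippocampus libraries and 2.14, 2.35, 3.26 and 3.27 CPM in the hypothalamus libraries, while Grin2d, a subunit of slowly closing receptors, was at 13.1, 15.7, 11.5 and 14.8 CPM in the hippocampus libraries and 69.3, 60.5, 54.2 and 36 CPM in the hypothalamus libraries. Neither overlapped, with log2 fold changes of 3.08 ± 0.15 and -2.0 ± 0.19. The obligatory subunit Grin1 differed less, at 681 ± 49.7 CPM against 453 ± 68.4 CPM (0.59 ± 0.11).

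All 28 genes of the postsynaptic calcium and plasticity list were called higher in the hippocampus, with a median log2 fold change of 2.09. The count was 28 under every alternative run, at 29 dpi and in the Sham + CD libraries. The list holds proteins of the dendritic spine: calcium-dependent kinases, their inhibitors and scaffolds. Camk2a, the alpha subunit of CaM kinase II, was at 5518, 6112, 5888 and 5448 CPM in the hippocampus libraries and 545, 529.8, 571 and 528 CPM in the hypothalamus libraries. The regions were far apart in every library, with a log2 fold change of 3.4 ± 0.07 (adjusted p = 1.39e-09). Camk2b, the beta subunit, is found in most neurons and differed less, at 1821 ± 111 CPM against 654 ± 30.2 CPM (1.48 ± 0.07). Ddn, the spine protein dendrin, was at 2374, 2674, 2399 and 2361 CPM in the hippocampus libraries and 42.8, 37.3, 41.4 and 27.8 CPM in the hypothalamus libraries. It had the largest difference of the list, at 6.04 ± 0.15, followed by Itpka (5.31 ± 0.13), a kinase that binds actin in spines. Hpca, the calcium sensor hippocalcin, was at 2062 ± 141 CPM against 163 ± 30.1 CPM (3.66 ± 0.14).

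Immediate early genes, which neurons switch on within minutes of activity, were mostly higher in the hippocampus. Of 20, 16 were called higher there and 1 higher in the hypothalamus, with a median of 1.46. The mice were under ketamine and xylazine at perfusion, and the part of this in these levels was not tested. Egr3 was at 92.9, 96.1, 92.5 and 78.5 CPM in the hippocampus libraries and 5.6, 4.46, 3.14 and 1.64 CPM in the hypothalamus libraries. Every hippocampus library was far above the highest hypothalamus library, and the log2 fold change was 4.61 ± 0.27. Arc, whose product remodels synapses, was at 149.8, 134, 87.9 and 120.1 CPM in the hippocampus libraries and 21.6, 20.9, 13.3 and 14.4 CPM in the hypothalamus libraries (2.81 ± 0.20). Replicate 3 was the lowest of the hippocampus libraries for Arc and Egr1, and was still above all hypothalamus libraries. Nr4a3 (3.44), Homer1 (1.92), Egr1 (1.27) and Jun (1.23) were called in the same direction. Fos was the exception. Its levels were 22.9, 8.88, 15.9 and 11.2 CPM in the hypothalamus libraries and 9.66, 6.83, 4.72 and 6.42 CPM in the hippocampus libraries, and the call of a higher level in the hypothalamus (-1.09 ± 0.30, adjusted p = 0.011) rests on libraries that overlapped between regions.

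Hypothalamic transcription factors had the lowest median of the 32 lists. Of 41 listed factors 39 were tested, 35 were called higher in the hypothalamus and 1 in the hippocampus, and the median log2 fold change was -4.78, or -4.0 with genes that had no count in the hippocampus set at their lower bound. Rax and Foxa2 did not pass the filter on low counts, and both were called higher in the hypothalamus in the fit without it (adjusted p = 0.00525 and 0.00533). Otp and Sim1 are homeodomain and bHLH-PAS factors required for the neurosecretory neurons of the paraventricular and supraoptic nuclei. Otp had no count in any hippocampus library and 14, 15.5, 17.3 and 10.6 CPM in the hypothalamus libraries. Against a floor of 3 counts per library it was at least 114-fold higher in the hypothalamus. Sim1 had 1 count over the 4 hippocampus libraries against 2509, a ratio of 2000 with a counting interval of 359 to 79000.

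Other members mark separate hypothalamic districts and their levels varied among the 4 hypothalamus libraries. Nr5a1, the factor SF-1 that defines the ventromedial nucleus, was at 3.33, 11.3, 17.7 and 19.8 CPM in the hypothalamus libraries and 0.0843, 0, 0.0433 and 0.0384 CPM in the hippocampus libraries. Replicate 1 was the lowest and replicate 4 the highest. Foxb1, a factor of the mammillary bodies, was at 7.63, 18.7, 14.8 and 41.5 CPM in the hypothalamus, and Nkx2-1, the patterning factor of the ventral hypothalamus, at 14.8, 21.4, 22.4 and 42.5 CPM. Both were highest in replicate 4, with log2 fold changes of -8.5 ± 0.82 and -5.67 ± 0.51. Six3 (-3.88 ± 0.30), Isl1 (-6.43 ± 0.55), Ebf3 (-3.51 ± 0.48) and Dlx1 (-1.61 ± 0.12) were called in the same direction. Isl1 reached 1.13 CPM in hippocampus replicate 3 and no more than 0.115 CPM in the other hippocampus libraries. Lhx9 was the factor higher in the hippocampus, at 21.5, 17.8, 21.2 and 17.8 CPM in the hippocampus libraries and 5.95, 4.31, 5.8 and 1.84 CPM in the hypothalamus libraries, with no overlap and a log2 fold change of 2.13 ± 0.29. Lhx6, which marks GABAergic neurons in both regions, was not called, at 0.79 ± 0.32. It was called higher in the hippocampus with the replicate number as a block (0.92), without hypothalamus replicate 1 (1.09) or 4 (0.53) and in the Sham + CD libraries (0.96).

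Neuropeptide precursors are the signature products of the hypothalamus. Of 38 precursors 29 were tested, of which 21 were called higher in the hypothalamus and 4 higher in the hippocampus, with a median of -3.44. Oxt encodes oxytocin and Avp vasopressin, the hormones that magnocellular neurons carry to the posterior pituitary. The genes are neighbours, Oxt at chr2:130576173-130577054 on the plus strand and Avp at chr2:130580620-130582554 on the minus strand, 3565 bases apart. Pmch encodes melanin-concentrating hormone, made by neurons of the lateral hypothalamus, and lies at chr10:88091072-88092375. Their promoters, 250 bases before to 50 after the RefSeq start on GRCm38.p6, are shown because these genes carry the contrast, beside that of Neurod2, which has the opposite regional level. Capitals mark matches to 4 short motifs searched on both strands, namely TAATTA, a homeodomain core that reads alike on both strands, then CAGATG, the E-box that neuronal bHLH factors bind, further TGACG, the core of cyclic AMP response elements, and finally TATAAA, the TATA box. Different motifs did not overlap in the promoters shown.
Oxt, chr2:130575919-130576218, plus strand: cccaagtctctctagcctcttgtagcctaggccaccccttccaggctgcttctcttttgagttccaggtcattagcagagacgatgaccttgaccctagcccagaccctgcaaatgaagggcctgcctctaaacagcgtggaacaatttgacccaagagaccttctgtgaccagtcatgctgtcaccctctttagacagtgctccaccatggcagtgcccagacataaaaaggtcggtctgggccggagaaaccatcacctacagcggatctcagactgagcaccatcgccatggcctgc
Avp, chr2:130582539-130582838, minus strand: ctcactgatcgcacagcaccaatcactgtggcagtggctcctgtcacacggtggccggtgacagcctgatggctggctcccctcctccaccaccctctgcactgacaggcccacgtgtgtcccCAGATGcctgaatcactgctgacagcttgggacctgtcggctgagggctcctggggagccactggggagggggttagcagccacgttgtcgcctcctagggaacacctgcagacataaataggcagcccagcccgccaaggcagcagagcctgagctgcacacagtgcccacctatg
Pmch, chr10:88090822-88091121, plus strand: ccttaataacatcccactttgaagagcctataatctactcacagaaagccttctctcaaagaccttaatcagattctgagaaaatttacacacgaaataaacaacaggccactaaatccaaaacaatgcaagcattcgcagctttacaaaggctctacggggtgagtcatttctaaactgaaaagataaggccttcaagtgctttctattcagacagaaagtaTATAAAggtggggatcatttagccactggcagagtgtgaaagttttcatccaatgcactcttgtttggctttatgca
Neurod2, chr11:98329596-98329895, minus strand: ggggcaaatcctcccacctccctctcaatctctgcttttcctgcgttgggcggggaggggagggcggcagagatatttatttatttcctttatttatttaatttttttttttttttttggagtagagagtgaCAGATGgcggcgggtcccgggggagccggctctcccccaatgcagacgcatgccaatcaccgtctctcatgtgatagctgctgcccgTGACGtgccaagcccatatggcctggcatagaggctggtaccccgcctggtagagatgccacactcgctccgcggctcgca
The Oxt promoter held none of the motifs, Avp held CAGATG, Pmch held TATAAA, and Neurod2 held CAGATG and TGACG. Other promoters were searched but are not displayed. Those of Slc17a7 and Neurod6, also higher in the hippocampus, held none of the motifs. On the hypothalamic side Hcrt held TATAAA and Otp held CAGATG. Among the 151 genes with a log2 fold change above 3 in the hippocampus and a promoter in the table, 17.9% held CAGATG, against 19% of the 168 such genes in the hypothalamus, 12% of the 11591 genes tested that have a promoter there and 17.2% of all 27025 promoters. In the same order TATAAA was in 15.2%, 15.5%, 7.17% and 14.2%, TGACG in 21.9%, 22.6%, 30.2% and 21%, and TAATTA in 8.61%, 4.76%, 2.6% and 5.31%. In both regional sets the share was lower than among the genes tested for TGACG and higher for the other motifs, and each lay nearer to the share over all promoters. These shares describe letters in a window and were not tested.

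Oxt was at 163, 198, 256 and 98 CPM in the hypothalamus libraries and 0.928, 0.219, 0.173 and 1.04 CPM in the hippocampus libraries. Even the lowest hypothalamus library, replicate 4, was far above all hippocampus libraries (log2 fold change -8.2 ± 0.45, adjusted p = 2.36e-07). Avp was at 443, 423, 325 and 86.8 CPM in the hypothalamus libraries and 3.12, 2.32, 0.346 and 1.42 CPM in the hippocampus libraries, with replicate 4 the lowest hypothalamus library and a log2 fold change of -7.47 ± 0.65. Pmch was at 652, 622, 386 and 265 CPM in the hypothalamus libraries and 0.548, 0.35, 0.0433 and 1.77 CPM in the hippocampus libraries (-9.4 ± 0.54). Hcrt, the precursor of the orexins that keep animals awake, was at 271, 166, 70.9 and 23.3 CPM in the hypothalamus libraries and 0.127, 0.0438, 0.13 and 0.269 CPM in the hippocampus libraries. Both lateral hypothalamic peptides had the same order of libraries, highest in replicate 1 and lowest in replicate 4, and none overlapped the hippocampus (Hcrt -9.78 ± 1.09). Trh, thyrotropin-releasing hormone, was at 158, 171, 159 and 97 CPM in the hypothalamus libraries and 0.548, 0.569, 0.779 and 0.922 CPM in the hippocampus libraries (-7.68 ± 0.25). Npvf, the precursor of the RFamide peptides of the dorsomedial nucleus, had no count in the hippocampus and 3.33, 3.89, 5.11 and 10.3 CPM in the hypothalamus, at least 45-fold above the floor.

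Peptides used in both regions differed less. Adcyap1 (PACAP) was at 5.18 ± 1.14 CPM in the hippocampus against 88.5 ± 15.7 CPM in the hypothalamus (-4.09 ± 0.18), Cartpt (CART) at 1.91 ± 0.419 against 76.4 ± 12.1 CPM (-5.31 ± 0.17) and Tac1 (substance P) at 6.04 ± 0.275 against 65.5 ± 8.89 CPM (-3.44 ± 0.11). Among opioid precursors, Penk was at 28.3 ± 3.38 against 113 ± 25.6 CPM (-1.99 ± 0.16) and Pdyn at 13.6 ± 1.99 against 65.1 ± 6.32 CPM (-2.26 ± 0.11). None of these groups overlapped. The precursors higher in the hippocampus were Cck, Cort, Grp and Sst. Cck, cholecystokinin of pyramidal cells and basket cells, was at 212, 233, 202 and 178 CPM in the hippocampus libraries and 13.7, 9.16, 10.9 and 13.5 CPM in the hypothalamus libraries (4.12 ± 0.14). Cort, the somatostatin-like peptide cortistatin of interneurons, was at 3.42, 5.21, 2.81 and 5.26 CPM in the hippocampus libraries and 0.035, 0.0357, 0.0598 and 0.10 CPM in the hypothalamus libraries and did not overlap (6.06 ± 0.37). Sst was at 172, 217, 147 and 193 CPM in the hippocampus libraries and 115, 100.4, 129.6 and 157 CPM in the hypothalamus libraries. Its groups overlapped and the call (0.54 ± 0.15, adjusted p = 0.0106) was not made with library totals alone (0.37) or at 29 dpi (0.26).

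Some peptides of arcuate neurons, Npy, Pomc, Agrp and Kiss1, were lower in hypothalamus replicates 1 and 2 than in 3 and 4. Others that arcuate neurons also make, Cartpt, Tac1 and Pdyn, did not divide that way beyond small differences, with Cartpt at 74.2, 68.7, 68.4 and 94.1 CPM in replicates 1 to 4. Npy, which drives feeding, was at 5.85, 4.46, 28.4 and 62.6 CPM in hypothalamus replicates 1 to 4, against 39.7, 43.9, 44.4 and 34.4 CPM in the hippocampus, where interneurons make it. It was not called (0.68 ± 0.67, adjusted p = 0.412), but was called higher in the hippocampus without hypothalamus replicate 4 (1.65), in the Sham + CD libraries (1.1) and at 29 dpi (1.08). Against hypothalamus replicates 1 and 2 alone its log2 fold change was 2.98, and against replicates 3 and 4 alone -0.12. Agrp, the partner of Npy in the same arcuate neurons, had too few libraries above the minimum count of the filter. It was at 0.070, 0.143, 7.26 and 15.3 CPM in the hypothalamus libraries and at most 0.0843 CPM in the hippocampus. Kiss1, kisspeptin, was at 0.245, 0.143, 1.05 and 1.64 CPM and had no count in the hippocampus, while Ucn3, urocortin 3 of the perifornical area, ran the other way, at 6.41, 6.28, 5.17 and 0.334 CPM. These last 3 genes were chosen after their values were seen, and each was called higher in the hypothalamus in the fit without a filter on low counts (adjusted p = 0.00612, 0.00486 and 1.25e-04). Pomc, made by arcuate neurons and by pituitary cells, was at 3.22, 7.27, 34.2 and 175 CPM in the hypothalamus libraries and 0.97, 0.919, 0.822 and 8.99 CPM in the hippocampus libraries. Hippocampus replicate 4 overlapped the hypothalamus, and the call (-4.19 ± 1.29, adjusted p = 0.0187) was lost without hypothalamus replicate 4, at -2.30, and at 29 dpi, at -1.89. Without hippocampus replicate 1 or 2 the log2 fold change stayed at -3.89 with an adjusted p of 0.054 and 0.0559.

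**Figure D2:**
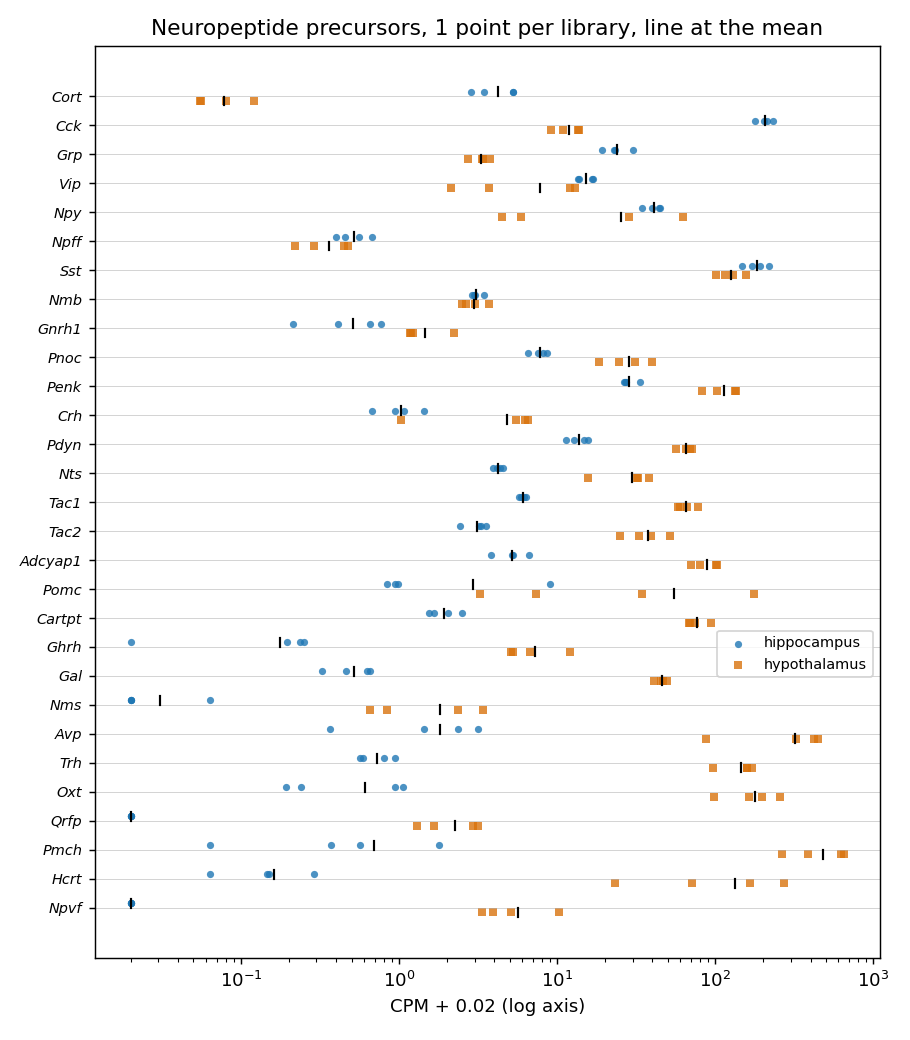
Level of each of the 29 neuropeptide precursors tested, in CPM with a small offset on a log axis, ordered by log2 fold change from the hippocampus side (top) to the hypothalamus side (bottom), with 1 point per library and a line at the mean of 4. Oxt, Avp, Pmch and Hcrt lie far to the right in all 4 hypothalamus libraries, and Npy and Pomc spread over the widest range among hypothalamus libraries.

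Receptors for peptides showed the same direction with smaller differences. Of 48 receptors 46 were tested, with 28 called higher in the hypothalamus, 9 higher in the hippocampus and a median of -0.85. Calcr, the calcitonin and amylin receptor, was at 27.9, 39.7, 45.9 and 40.1 CPM in the hypothalamus libraries and 0, 0, 0.779 and 0 CPM in the hippocampus libraries. Only hippocampus replicate 3 had counts of it, and the log2 fold change was -7.64 ± 0.56. Cckar, the cholecystokinin A receptor, was at 9.25 to 14.2 CPM in the hypothalamus and 0 to 0.216 CPM in the hippocampus (-7.26 ± 0.45), so the receptor and the Cck precursor had opposite regional levels. Adcyap1r1, the PACAP receptor, was abundant in both regions, at 251 ± 10.2 CPM against 481 ± 26 CPM (-0.94 ± 0.06), and Oprl1, the nociceptin receptor, was at 54.3 ± 4.43 against 130.5 ± 4.87 CPM (-1.27 ± 0.06). The receptors with the largest differences toward the hippocampus were Vipr1, at 28.6, 30.4, 27.6 and 25.5 CPM in the hippocampus libraries and 1.4, 1.18, 1.08 and 0.868 CPM in the hypothalamus libraries (4.63 ± 0.13), and the somatostatin receptor Sstr4 (2.68 ± 0.11). Avpr1b, a vasopressin receptor known from CA2 pyramidal cells, did not pass the filter on low counts. It had 6, 18, 21 and 12 counts in the hippocampus libraries and 0 in each hypothalamus library, was called without the filter (adjusted p = 3.16e-04), and was chosen after its values were seen.

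The machinery that cuts and stores prohormones was less one-sided. Of 20 genes 10 were called higher in the hypothalamus and 5 higher in the hippocampus, against 23.8% and 22.1% of all genes tested. The median was -0.34, and library totals alone gave 11 and 2. Baiap3, which works in dense-core vesicle recycling, had the largest difference, at 692, 757, 832 and 809.6 CPM in the hypothalamus libraries and 16.3, 16.1, 23.5 and 16.8 CPM in the hippocampus libraries. All hypothalamus libraries were far above the hippocampus (-5.41 ± 0.14). Resp18, a neuroendocrine protein, was at 43.9 ± 2.64 CPM in the hippocampus against 357 ± 12.6 CPM (-3.02 ± 0.06), and the granin Scg2 at 209 ± 6.12 CPM against 1164 ± 76.9 CPM (-2.48 ± 0.06). Carboxypeptidase E, encoded by Cpe, went the other way at 2749 ± 236 CPM against 1696 ± 121 CPM (0.70 ± 0.08), as did the granin Chgb at 744 ± 37.4 against 364 ± 32.5 CPM (1.03 ± 0.07).

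**Figure D3:**
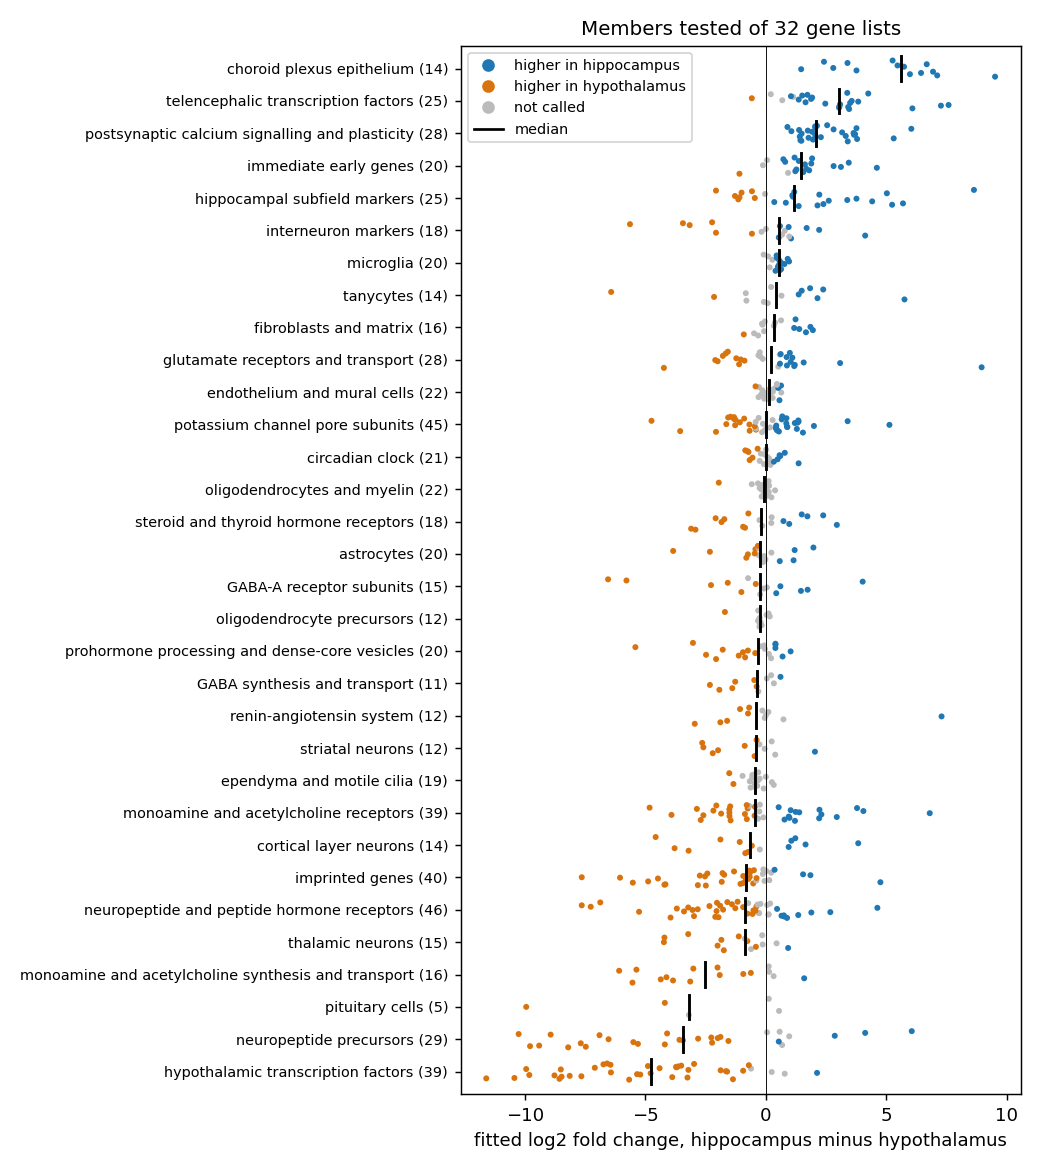
Fitted log2 fold change, hippocampus minus hypothalamus, of each member tested of the 32 gene lists, 1 point per gene and a line at the median of the list. Blue points were called higher in the hippocampus, orange points higher in the hypothalamus and grey points were not called. Choroid plexus, telencephalic and postsynaptic lists lie furthest right and hypothalamic transcription factors and neuropeptides furthest left, with medians of 5.60, 3.04, 2.09, -4.78 and -3.44.

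GABA, the main inhibitory transmitter, is used by interneurons in the hippocampus and by many projection neurons in the hypothalamus. Of 11 genes for its synthesis and transport 6 were called higher in the hypothalamus and 1 higher in the hippocampus, with a median of -0.38. Gad2, a GABA-synthesizing enzyme, was at 548, 522, 534 and 418 CPM in the hypothalamus libraries and 119, 128, 152 and 135 CPM in the hippocampus libraries (-1.93 ± 0.10), and Abat, which degrades GABA, at 327 ± 18.1 CPM in the hippocampus against 788 ± 22.6 CPM (-1.27 ± 0.06). Slc6a11, the GABA transporter GAT-3 of astrocytes, was at 1103, 1084, 1025 and 1057 CPM in the hypothalamus libraries and 213, 211, 217 and 215 CPM in the hippocampus libraries. The spread within each region was small beside the difference (-2.32 ± 0.05).

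GABA-A receptor subunits were called in both directions. Of 15 tested 5 were called higher in the hippocampus and 6 higher in the hypothalamus, against 22.1% and 23.8% of all genes tested. Gabrd, the delta subunit of extrasynaptic receptors in dentate granule cells, was at 25.3, 24.2, 21.4 and 23.8 CPM in the hippocampus libraries and 2.56, 1.03, 1.34 and 0.901 CPM in the hypothalamus libraries (4.02 ± 0.26), and Gabra5, the alpha 5 subunit of tonic inhibition in CA1, at 222 ± 12.1 CPM against 66.7 ± 9.6 CPM (1.74 ± 0.10). Gabrq and Gabre, which encode the theta and epsilon subunits and lie in a cluster on the X chromosome, went the other way. Gabrq was at 92.7, 119, 149 and 150 CPM in the hypothalamus libraries and 0.843, 1.09, 2.86 and 0.73 CPM in the hippocampus libraries (-6.54 ± 0.33), and Gabre at 17.8 to 47.7 CPM against 0.219 to 1.21 CPM (-5.78 ± 0.49).

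Enzymes and transporters of monoamines and acetylcholine were higher in the hypothalamus in 12 of 16 members tested, against 1 higher in the hippocampus, with a median of -2.50. Cell bodies of histamine neurons and of some groups of dopamine neurons lie in the hypothalamus, whereas the hippocampus receives axons of such neurons. The part of this in the count was not tested. Th, tyrosine hydroxylase, was at 40.2, 38.5, 42.3 and 41.9 CPM in the hypothalamus libraries and 1.1, 0.919, 0.563 and 0.922 CPM in the hippocampus libraries. The 4 hypothalamus libraries lay within 38.5 to 42.3 CPM, a log2 fold change of -5.53 ± 0.13. Chat, which makes acetylcholine, was at 5.67, 4.81, 1.29 and 0.901 CPM in the hypothalamus, higher in replicates 1 and 2 than in 3 and 4, and at most 0.0875 CPM in the hippocampus (-6.08 ± 0.91). The degrading enzymes Ache (-2.0 ± 0.10) and Maoa (-0.93 ± 0.07) were called in the same direction. Receptors were divided. Of 39 tested 15 were called higher in the hippocampus and 19 higher in the hypothalamus, against 22.1% and 23.8% of all genes tested. Chrm1, the muscarinic M1 receptor, was at 328, 345, 314 and 312 CPM in the hippocampus libraries and 19.9, 21.4, 18.4 and 18.8 CPM in the hypothalamus libraries (4.05 ± 0.07), and the alpha-1D adrenergic receptor Adra1d at 63, 66.8, 56.3 and 58.4 CPM in the hippocampus libraries and 0.77, 0.749, 0.448 and 0.234 CPM in the hypothalamus libraries (6.8 ± 0.20). Neither group overlapped. Chrna6, a nicotinic subunit of dopamine neurons, was at 1.94 to 4.03 CPM in the hypothalamus (-4.82 ± 0.36), Drd3 at 0.82 to 2.64 CPM (-3.91 ± 0.73) and Drd2 at 12.9 to 18.8 CPM (-2.59 ± 0.18). The ionotropic serotonin receptor Htr3a of interneurons was higher in the hippocampus (2.21 ± 0.14).

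Interneuron markers were 18 in all. Of these 7 were called higher in the hippocampus and 6 higher in the hypothalamus, against 22.1% and 23.8% of all genes tested. Library totals alone gave counts of 6 and 7. Htr3a and Cck were among those higher in the hippocampus. Chodl, which marks rare long-range Sst neurons of the cortex, was at 9.14, 11.4, 14.4 and 17.7 CPM in the hypothalamus libraries and 0.0843, 0.131, 0.389 and 0.423 CPM in the hippocampus libraries (-5.63 ± 0.37), with replicate 4 the highest hypothalamus library.

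Nuclear hormone receptors and genes of thyroid hormone handling were split. Of 18 genes 6 were called higher in the hippocampus and 8 higher in the hypothalamus, against 22.1% and 23.8% of all genes tested. Nr3c2, the mineralocorticoid receptor that binds corticosterone with high affinity in the hippocampus, was at 152, 159.8, 161 and 142 CPM in the hippocampus libraries and 19.8, 20.6, 19.3 and 20 CPM in the hypothalamus libraries. The libraries of each region lay close together and far from the other region (2.95 ± 0.06, adjusted p = 1.16e-09). The estrogen receptors went the other way, Esr1 at 13.3, 14.8, 23.2 and 25.1 CPM in the hypothalamus libraries and 3.12, 2.45, 1.9 and 2.61 CPM in the hippocampus libraries (-2.92 ± 0.24) and Esr2 at 1.37 to 2.14 against 0.0843 to 0.346 CPM (-3.1 ± 0.33). Thra, a thyroid hormone receptor, was at 1086 ± 55.4 CPM in the hippocampus against 554 ± 67.1 CPM (0.97 ± 0.09). Dio2, which activates thyroid hormone and is made by astrocytes and tanycytes, was at 52, 55.3, 65.7 and 51.8 CPM in the hippocampus libraries and 10.3, 8.45, 8.43 and 15.9 CPM in the hypothalamus libraries (2.38 ± 0.19).

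The renin-angiotensin system is the pathway of the study's drug, which blocks the angiotensin AT1 receptor. Of 14 listed genes 12 were tested, 6 were called higher in the hypothalamus and 1 higher in the hippocampus, with a median of -0.41. Agt, the precursor angiotensinogen made in brain mainly by astrocytes, was at 381, 350, 301 and 248 CPM in the hypothalamus libraries and 37.2, 42.3, 41.9 and 44.5 CPM in the hippocampus libraries. Each hypothalamus library was far above all hippocampus libraries (-2.95 ± 0.13, adjusted p = 5.66e-08). The receptors for angiotensin II were low. Agtr1a, the AT1 receptor gene, was at 1.93, 2.39, 2.87 and 2.64 CPM in the hypothalamus libraries and 0.759, 0.70, 0.779 and 0.423 CPM in the hippocampus libraries (-1.88 ± 0.23), and the AT2 receptor gene Agtr2 at 2.14, 2.46, 1.94 and 1.5 CPM in the hypothalamus libraries and 0.506, 0.788, 0.606 and 0.73 CPM in the hippocampus libraries (-1.6 ± 0.22). For both genes every hypothalamus library was above every hippocampus library. Mas1, the receptor for angiotensin 1-7 at chr17:12841079-12868143, went the other way, at 53.7, 48.9, 50.3 and 44.6 CPM in the hippocampus libraries and 0.42, 0.713, 0.0299 and 0.134 CPM in the hypothalamus libraries. It was the member with the largest difference (7.29 ± 0.35). The peptidases Mme (-1.07 ± 0.16) and Lnpep (-0.74 ± 0.15) and the receptor-associated Agtrap (-0.69 ± 0.12) were called higher in the hypothalamus. The Lnpep call was not made in the Sham + CD libraries (-0.22). Ace was not called (0.73 ± 0.47), at 132, 106, 15.6 and 106 CPM in the hippocampus libraries and 59.1, 59.3, 54.5 and 43.4 CPM in the hypothalamus libraries. Without hippocampus replicate 3, the library low in choroid plexus RNA, it was called at 1.09. In the Sham + CD libraries it was called the other way, higher in the hypothalamus, at -2.30.

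Potassium channels divided by subunit. Of 45 pore subunits 20 were called higher in the hippocampus and 16 higher in the hypothalamus, against 22.1% and 23.8% of all genes tested. The median was 0.03, and library totals alone gave 16 and 20. Kcnh3, a slow voltage-gated channel of forebrain neurons, was at 126, 126, 105 and 123 CPM in the hippocampus libraries and 4.69, 3.17, 3.44 and 2.4 CPM in the hypothalamus libraries (5.13 ± 0.16), and the inward rectifier Kcnj4 at 64.6 ± 4.41 CPM against 6.14 ± 0.97 CPM (3.4 ± 0.11). Kcnj5, a G protein-gated channel, was at 11.2 to 18.7 CPM in the hypothalamus against 0.169 to 1.08 CPM (-4.74 ± 0.41), and Kcna5 followed at -3.55 ± 0.18. Kcnj10, the glial channel Kir4.1, was at 227 ± 20 against 542 ± 23.3 CPM (-1.26 ± 0.07).

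Imprinted genes, which are read from only the maternal or the paternal copy and include regulators of growth and feeding, were mostly higher in the hypothalamus, 28 of 40 tested against 4 higher in the hippocampus, with a median of -0.82. Nap1l5 was at 1277, 1323, 1274 and 1211 CPM in the hypothalamus libraries and 222, 200.1, 238 and 224 CPM in the hippocampus libraries. The difference (-2.52 ± 0.07) was far above the spread within regions. Peg3, a paternally expressed zinc finger gene, was at 1077, 1186, 1419.8 and 1357 CPM in the hypothalamus libraries and 215, 228, 240.5 and 216 CPM in the hippocampus libraries (-2.49 ± 0.09), and Asb4 at 25.2, 35.9, 49.4 and 84.6 CPM in the hypothalamus against 0.384 to 1.51 CPM (-6.05 ± 0.51), lowest in replicate 1 and highest in replicate 4. The noncoding RNA Meg3 was at 7643, 7231, 8374 and 8349 CPM in the hypothalamus libraries and 3942, 3797, 3531 and 3991 CPM in the hippocampus libraries (-1.05 ± 0.08), and Gnas, the stimulatory G protein, at 1361 ± 33.8 CPM in the hippocampus against 2156 ± 263 CPM (-0.66 ± 0.09). Calcr, described above, is on this list too. Dio3, which inactivates thyroid hormone, was the member with the largest difference toward the hippocampus, at 11.3, 7.22, 3.76 and 9.45 CPM in the hippocampus libraries and 0.035, 0.143, 0.299 and 0.668 CPM in the hypothalamus libraries (4.76 ± 0.56). Igf2 is made by meninges and choroid plexus. It was at 249.9, 197, 40.4 and 273 CPM in the hippocampus libraries and 51, 76.5, 42.1 and 41.3 CPM in the hypothalamus libraries. Hippocampus replicate 3 lay below every hypothalamus library, the call (1.85 ± 0.48) was not made at 29 dpi (1.36), and the value was -0.23 in the Sham + CD libraries.

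Clock genes run daily transcription cycles in most cells. Of 21, 6 were called in each direction with a median of 0.02, and library totals alone gave 4 and 8. The shares of all genes tested were 22.1% and 23.8%. Tef (0.60 ± 0.05), Cry2 (0.49 ± 0.04) and Npas2 (1.36 ± 0.08), a forebrain partner of the clock, were higher in the hippocampus. The nuclear receptors Rora, at 31 ± 3.44 CPM against 52.6 ± 7.45 CPM (-0.76 ± 0.11), and Rorb (-0.85 ± 0.19) were higher in the hypothalamus. The Cry2 call was not made with library totals alone.

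Microglia are the resident macrophages of the brain. Of 20 markers 16 were called higher in the hippocampus and none in the hypothalamus, with a median of 0.53, and the call counts were 12 to 17 under the alternatives run. The summed level was 663, 629, 676 and 663 CPM in the hippocampus libraries and 529, 514, 475 and 449.5 CPM in the hypothalamus libraries. Csf1r, the receptor that microglia depend on, was at 109, 105, 111 and 114 CPM in the hippocampus libraries and 87, 79.6, 75.2 and 66.7 CPM in the hypothalamus libraries (0.51 ± 0.08). Each hippocampus library exceeded each hypothalamus library, by a smaller factor than for the neuronal genes. Cx3cr1 (0.40 ± 0.06), Fcrls (0.97 ± 0.09) and P2ry13 (0.91 ± 0.13) were called in the same direction, and Cx3cr1 fell below the fold threshold with library totals alone (0.24).

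Of 20 astrocyte markers 4 were called higher in the hippocampus and 7 higher in the hypothalamus, or 3 and 11 with library totals alone, against 22.1% and 23.8% of all genes tested. The summed level overlapped between regions, at 6881, 6835, 7741 and 6859 CPM in the hippocampus and 7779, 7580, 7008 and 6887 CPM in the hypothalamus. Slc1a2, the glutamate transporter GLT-1, was at 2659.9, 2593, 3105 and 2550.2 CPM in the hippocampus libraries and 1283, 1231, 1217 and 1174 CPM in the hypothalamus libraries (1.15 ± 0.08). Itih3, a matrix protein, was at 389, 479, 486 and 476 CPM in the hypothalamus libraries and 30.6, 32.7, 34.3 and 30 CPM in the hippocampus libraries (-3.84 ± 0.09). Both genes separated all libraries, in opposite directions. Mfge8 was higher in the hippocampus (1.2 ± 0.12), and the sodium pump subunit Atp1b2 higher in the hypothalamus (-0.74 ± 0.08), as was Slc6a11 above.

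Oligodendrocyte markers varied between libraries within each region. Only Nkx6-2, a homeodomain factor of oligodendrocytes, was called of 22 markers (-1.95 ± 0.18). The summed level was 3748, 6488, 9321 and 6827 CPM in the hippocampus libraries and 10500, 7207, 4497 and 3183 CPM in the hypothalamus libraries, so hypothalamus replicates 1 and 4 bracketed the hippocampus. Mbp, myelin basic protein, was at 1679, 2890.5, 4076 and 2960.2 CPM in the hippocampus libraries and 4241, 2773, 1669.6 and 1183 CPM in the hypothalamus libraries (0.23 ± 0.38, adjusted p = 0.627). Against hypothalamus replicates 3 and 4 alone 8 markers were called higher in the hippocampus, and against replicates 1 and 2 alone 5 were called higher in the hypothalamus. At 29 dpi 3 were called higher in the hippocampus, Mbp among them (0.35), and 2 higher in the hypothalamus, and in the Sham + CD libraries 5 were called higher in the hypothalamus. Of 12 precursor markers only Lhfpl3 was called, higher in the hypothalamus (-1.7 ± 0.13), or 6 with library totals alone.

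Cells of the ventricle wall divided the hypothalamus libraries the other way. The summed level of 19 markers of motile cilia was 79.7, 90.8, 302 and 433 CPM in hypothalamus replicates 1 to 4 and 158, 153, 166 and 192 CPM in the hippocampus. Against replicates 1 and 2 alone 14 were called higher in the hippocampus, and against replicates 3 and 4 alone all 19 were called higher in the hypothalamus. With all 4 libraries only Tekt4 (-1.51 ± 0.23) and Fam183b (-1.34 ± 0.39) were called, both higher in the hypothalamus, and at 29 dpi 15 of 19 were. The part that these cells take in the other differences was not tested. Tanycyte genes were at 127, 139, 257 and 446 CPM in the hypothalamus and 679, 593, 558 and 634 CPM in the hippocampus. Of 14 tested 6 were called higher in the hippocampus and 2 higher in the hypothalamus, against 22.1% and 23.8% of all genes tested. These counts were 10 and 2 against hypothalamus replicates 1 and 2 alone, 6 and 6 against replicates 3 and 4 alone, and 7 and 5 at 29 dpi. Members that are made by other cells too led the former. Crym, a thyroid hormone-binding protein of hippocampal pyramidal cells as well as tanycytes, was at 289, 235, 218 and 240.4 CPM in the hippocampus libraries and 2.35, 2.5, 3.89 and 9.35 CPM in the hypothalamus libraries (5.75 ± 0.37), and Tgfb2 at 65.3 ± 6.71 against 18.2 ± 5.08 CPM (1.84 ± 0.17). Gpr50, an orphan receptor of tanycytes, was at 4.76, 7.6, 23.1 and 51.7 CPM in the hypothalamus libraries and 0.0422, 0.0875, 0.606 and 0.269 CPM in the hippocampus libraries (-6.42 ± 0.98), and the sodium channel Scn7a at 7.77, 8.7, 16.7 and 31.3 CPM in the hypothalamus libraries and 3.75, 3.85, 3.72 and 3.27 CPM in the hippocampus libraries (-2.15 ± 0.41). Rax, which defines tanycytes, was below the filter on low counts, at 0.21, 0.0357, 2.42 and 6.04 CPM in the hypothalamus libraries, and was chosen after its values were seen. Replicate 4 was the highest for all 3 of Gpr50, Scn7a and Rax.

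Choroid plexus, the tissue that secretes cerebrospinal fluid and hangs in the ventricle beside the hippocampus, gave the list with the largest median, 5.60, with 14 of 14 tested members called higher in the hippocampus. The summed level was 7174, 4662, 228 and 4977 CPM in the hippocampus libraries and 36.3, 43.9, 54.2 and 69.8 CPM in the hypothalamus libraries. Hippocampus replicate 3 was far below the other hippocampus libraries and still above every hypothalamus library. Ttr, the thyroid hormone carrier transthyretin, was at 6471, 4059, 162 and 4294 CPM in the hippocampus libraries and 3.75, 6.56, 3.11 and 7.18 CPM in the hypothalamus libraries (9.51 ± 1.09). It was uneven in the 29 dpi hippocampus libraries too, at 6991, 183, 55.4 and 4157 CPM. The thalamus at 3 dpi held 1069 ± 1495 CPM of Ttr. Neither Ttr nor Kcne2 was called between hippocampus and thalamus (adjusted p = 0.257 and 0.243). Kcne2 was at 32.1, 24.9, 0.649 and 27.5 CPM in the hippocampus libraries and 0.070, 0.0713, 0.209 and 0.234 CPM in the hypothalamus libraries (7.11 ± 1.11), Slc4a5 at 48.4, 39.6, 1.34 and 39.7 CPM in the hippocampus (6.94 ± 1.03) and Kl, the aging-related coreceptor klotho, at 193, 165, 31.5 and 194 CPM in the hippocampus libraries and 8.65, 8.59, 11.3 and 14.3 CPM in the hypothalamus libraries (3.76 ± 0.51). F5 (5.47 ± 0.84) followed the same order of libraries. Clic6 was called with overlap, at 100.4, 74.6, 8.18 and 91.3 CPM in the hippocampus libraries and 16.8, 22, 27.9 and 32.5 CPM in the hypothalamus libraries (1.47 ± 0.57, adjusted p = 0.0483). In the Sham + CD libraries of the same regions 6 members were called higher in the hippocampus and 2 higher in the hypothalamus, with Clic6 called the other way at -2.69 and F5 not called at 0.32. The Clic6 call was also lost with DESeq2, with library totals alone, with the replicate number as a block, at 29 dpi (1.09), and without hippocampus replicate 1, 2 or 4 or hypothalamus replicate 1, 2 or 3 (1.24 to 1.55).

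**Figure D4:**
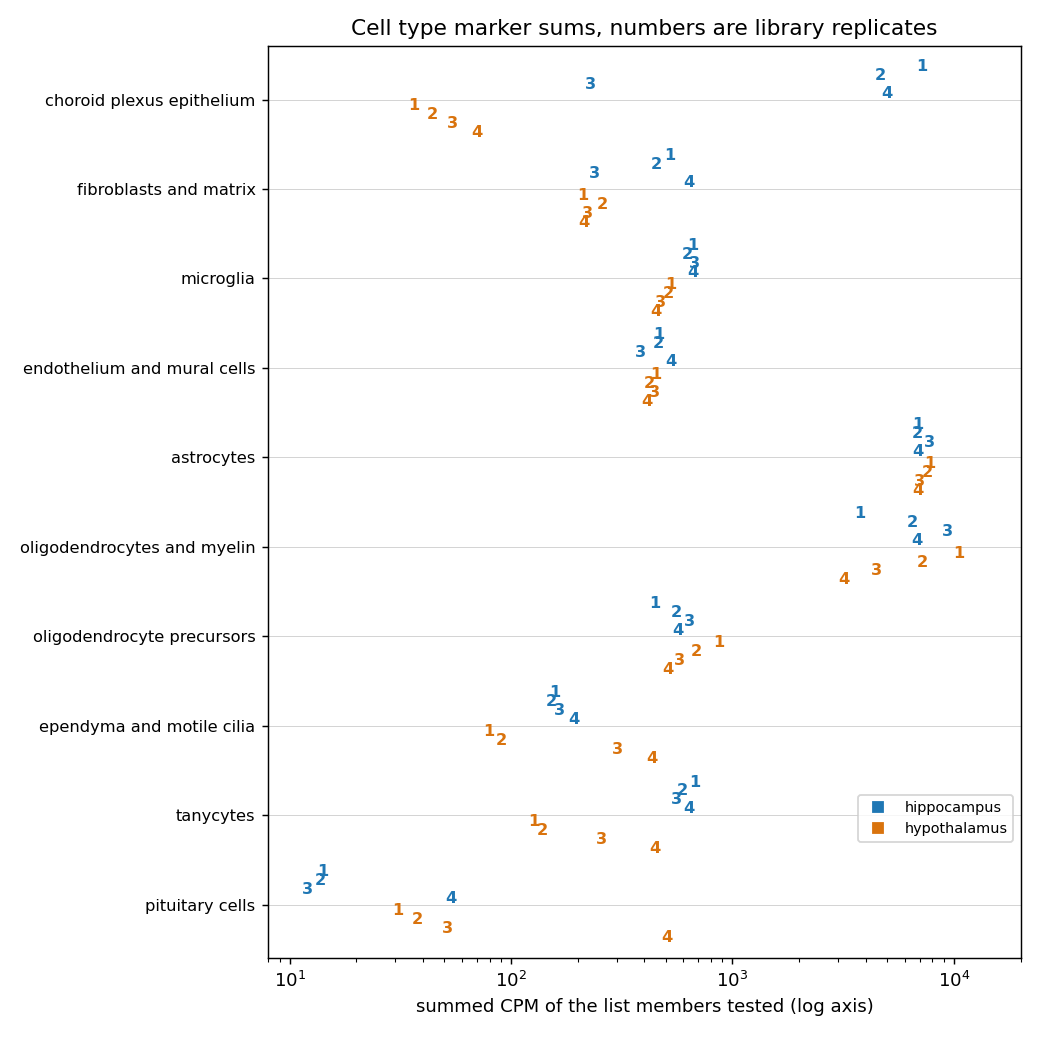
Summed CPM of the members tested of 10 cell type lists, on a log axis, with the replicate number of each library drawn at its value (blue hippocampus, orange hypothalamus). Hippocampus replicate 3 stands apart for the choroid plexus (228.2 CPM against 4662 to 7174 CPM), hypothalamus replicates 1 and 2 for motile cilia and tanycytes, and hypothalamus replicate 4 for pituitary genes (502.9 CPM).

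Of 16 fibroblast and matrix genes 6 were called higher in the hippocampus and 1 higher in the hypothalamus, against 45.9% of all genes tested in either direction, and hippocampus replicate 3 was the lowest hippocampus library, at 522, 451, 239 and 634 CPM summed in replicates 1 to 4 against 209.9, 258, 222 and 214 CPM. Col6a1 (1.67 ± 0.14) and Dcn (1.95 ± 0.24) were called toward the hippocampus. Col1a2 was higher in the hypothalamus (-0.91 ± 0.24), a call not made at 29 dpi (-0.56). Of 22 endothelial and mural genes 3 were called higher in the hippocampus and 1 higher in the hypothalamus, against 45.9% of all genes tested in either direction. Without hippocampus replicate 3 the counts were 9 and 1, a share near that of all genes.

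Markers of neighbouring tissue were looked at as a check of the dissection. Their counts stand against 22.1% of all genes tested called higher in the hippocampus and 23.8% higher in the hypothalamus. Of 14 genes of cortical layers 5 were called higher in the hippocampus and 8 higher in the hypothalamus. Fezf2, a factor of deep-layer neurons, was at 48.7 ± 5.4 against 3.4 ± 0.163 CPM (3.84 ± 0.10), whereas Nxph4 (-4.57 ± 0.24) and Rspo1 (-3.78 ± 0.17) were higher in the hypothalamus. Of 12 striatal genes 7 were called higher in the hypothalamus and 1 in the hippocampus. Rgs9 was at 24.2 ± 1.28 against 95.2 ± 19.3 CPM (-1.98 ± 0.13). Ppp1r1b (DARPP-32), the member higher in the hippocampus, was at 92.9, 91, 50.6 and 94.2 CPM in the hippocampus libraries and 23.6, 20.9, 16 and 19.6 CPM in the hypothalamus libraries, with replicate 3 the lowest hippocampus library (2.04 ± 0.20). Of 15 thalamic genes 9 were called higher in the hypothalamus and 1 in the hippocampus. Cbln1, a synapse organizer, was at 131, 129, 104 and 91 CPM in the hypothalamus libraries and 4.43, 6.08, 5.11 and 8.91 CPM in the hippocampus libraries (-4.21 ± 0.21), and at 132 ± 13.8 CPM in the thalamus. Prkcd, which is abundant in thalamic relay neurons, was at 17.8, 33, 44.1 and 26.3 CPM in the hippocampus libraries and 24.7, 14.3, 13.6 and 11.2 CPM in the hypothalamus libraries against 655 ± 181 CPM in the thalamus libraries. Its call (0.93 ± 0.30, adjusted p = 0.0226) was lost without hippocampus replicate 2 or 3 or hypothalamus replicate 2 or 3 (0.69 to 0.90), and the log2 fold change was 0.04 in the Sham + CD libraries.

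Pituitary genes appeared in replicate 4 of both regions. Only 5 of 13 passed the filter on low counts, with 2 called higher in the hypothalamus, Pomc among them. Without the filter Cga, Fshb and Tbx19 were called higher in the hypothalamus too (adjusted p = 0.0396, 0.0355 and 0.00256). Gh, growth hormone, was at 0, 0.263, 0 and 31.7 CPM in the hippocampus libraries and 0.595, 1.11, 0.508 and 297 CPM in the hypothalamus libraries. The groups overlapped and it was not called (-3.19 ± 2.01), and without hypothalamus replicate 4 its log2 fold change was 3.47. With the replicate number as a block, where replicate 4 is high in both regions, it was called (-3.21 ± 0.25, adjusted p = 4.90e-05). Prl, prolactin, was at 0.14, 0.143, 0.179 and 49.2 CPM in the hypothalamus and 0, 0.175, 0.13 and 4.3 CPM in the hippocampus, and Cga, the subunit shared by 3 kinds of pituitary hormone, at 0, 0.178, 3.14 and 5.84 CPM in the hypothalamus. Prl, Cga, Fshb and Tbx19 were chosen after their values were seen.

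The 4 thalamus libraries of the Sham + VH group at 3 dpi were set beside both. Of 16959 genes tested in the 12 libraries together, 6701 (39.5%) were called between hippocampus and thalamus and 4514 (26.6%) between hypothalamus and thalamus. The comparisons share the thalamus libraries. Some genes of the hippocampal side were as low in the thalamus as in the hypothalamus or nearly so, with Neurod6 at 1.32 ± 1.06 CPM, Mas1 at 0.332 ± 0.345 CPM and Ddn at 51 ± 3.62 CPM. Others were called higher in the thalamus than in the hypothalamus, with Mef2c at 82.2 ± 6.4 against 28.1 ± 2.83 CPM, Slc17a7 at 185 ± 41.8 against 3.69 ± 3.02 CPM and Cck at 113 ± 15 against 11.8 ± 2.19 CPM. Camk2a was at 843 ± 108 CPM there, nearer the hypothalamus. Most named peptide precursors of the hypothalamic side were called lower in the thalamus than in the hypothalamus, namely Trh, Tac1, Pdyn, Penk, Adcyap1, Cartpt, Avp, Npvf and Hcrt (adjusted p from 2.60e-06 for Tac1 to 0.0443 for Hcrt). Pmch at 182 ± 159.8 CPM, Oxt at 53.7 ± 49.9 CPM and Pomc at 7.47 ± 12.6 CPM in the thalamus were not (adjusted p = 0.15, 0.0509 and 0.0986). Agt was at 292 ± 17.1 CPM, within the hypothalamic range of 248 to 381 CPM. Gabrd at 87.5 ± 26.4 CPM and Rora at 349.6 ± 52.3 CPM were higher in the thalamus than in either region.

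The regional difference was repeated in the other cohort. At 29 dpi 3630 of 16606 genes (21.9%) were called higher in the hippocampus and 3963 (23.9%) higher in the hypothalamus. Shared calls were 3086 in the hippocampus direction, 84% of the 3 dpi and 85% of the 29 dpi calls, and 3216 in the hypothalamus direction, 81.1% and 81.2%. Of the 3 dpi calls tested at 29 dpi, 3594 of 3613 and 3881 of 3919 had the same sign, and 1 gene was called oppositely. Above a log2 fold change of 3, 180 and 197 calls were shared, 80% and 80.7% of those at 3 dpi. Across 16408 genes tested in both cohorts, which are not independent replicates, Pearson's r of the log2 fold changes was 0.961 and Spearman's rho 0.922. Slc17a7 had 8.26 ± 0.19 at 29 dpi, Neurod6 7.5 ± 0.21, Mas1 7.12 ± 0.24, Oxt -7.12 ± 0.49, Avp -8.51 ± 0.21, Agt -3.22 ± 0.17 and Camk2a 3.19 ± 0.08. The test of the difference between the cohorts (region by day) called 0 of 17307 genes with edgeR. Before adjustment 1010 genes had p under 0.05, the smallest adjusted p was 0.302, and DESeq2 called 2.

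**Figure D5:**
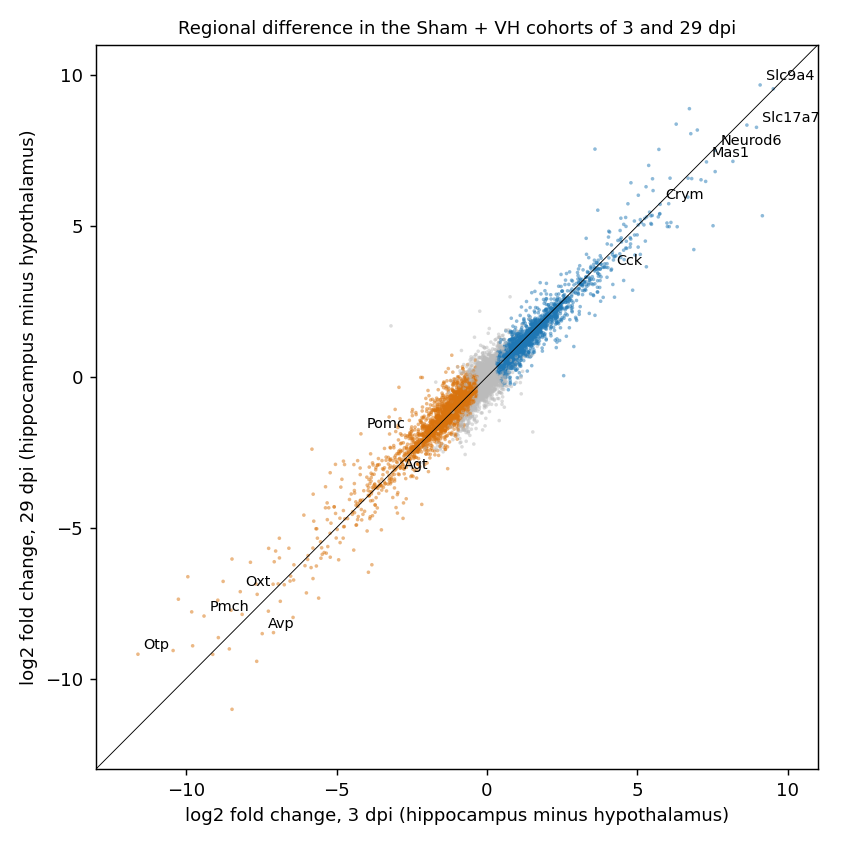
Log2 fold change of hippocampus over hypothalamus at 3 dpi (x axis) and 29 dpi (y axis) for the 16408 genes tested in both Sham + VH cohorts, with the line of equal values. Points are coloured by the 3 dpi call, blue higher in the hippocampus and orange higher in the hypothalamus. The points follow the line, and Pomc is among the labelled genes with a smaller difference at 29 dpi.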

How the data were processed

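The authors aligned paired-end stranded reads to mm10 with MapSplice, counted them per gene with HTSeq 0.9.1, and deposited whole counts without normalization for 32594 symbols. Annotation and strand handling are not given in the sources used here, which leaves paralogs and genes that overlap another gene uncertain. Of these genes 23334 had a count in the 8 libraries and 16660 passed filterByExpr of edgeR 4.0.16 (R 4.3.3). Counts were scaled by TMM, and the regions were set against each other without a replicate block in edgeR's quasi-likelihood test (2-sided), with p-values adjusted over all genes tested by the method of Benjamini and Hochberg. A gene was called under an adjusted p of 0.05 above an absolute log2 fold change of 0.32, the thresholds of the authors, who used DESeq2 1.16.1. The fit was tested on simulated data. Library totals set the counting error of each value, and the spread between libraries its standard error.

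The libraries, the 32 gene lists and the tests were chosen with earlier results of these data known. Lists are described by counts and medians without a test. Named genes are the 10 largest differences in each direction with at least 10 CPM and no overlap, the most abundant 4 members of each list (8 for transcription factors, 14 for neuropeptides, all of the renin-angiotensin system) and the 2 largest calls per direction and list with at least 1 CPM. Of the 223 genes this gives, 157 are described, some are not reported here, and genes outside the rule are marked. A group without counts was set at a floor of 3 counts per library, and counting intervals (95%) cover counting error only. Alternatives were DESeq2 1.42.0, RLE factors, library totals, other filters and thresholds, other sets of libraries, each library left out and the replicate number as a block. Positions are from GENCODE vM21 (GRCm38, the assembly of mm10), matched by symbol for 89% of genes tested, and promoters from RefSeq (GRCm38.p6). Figures were drawn with matplotlib 3.10.9 under Python 3.11.15.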

Additional observations from a re-analysis of the deposited data

Results flagged for a closer look

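In each region the library furthest from the others was compared with the range of its group of 4 (Dixon's ratio at its 95% critical value). Of 378 groups of values, for named genes and for list sums, 27 (7.14%) held a library beyond that value, where chance gives about 5%, so that some of these are to be looked for by chance alone. All levels are in CPM.

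Replicate 4 of both regions stood out for pituitary genes. In the hippocampus it had 31.66 CPM of Gh (others 0 to 0.2626), 8.991 of Pomc (0.8222 to 0.9699), 33.39 of Penk (26.22 to 27.05) and a pituitary sum of 53.48 (12.03 to 14.17). In the hypothalamus it had 296.6 of Gh (0.5081 to 1.105) and a pituitary sum of 502.9 (30.85 to 51.76). The same hypothalamus library was high for Drd3 at 2.637 (0.8201 to 0.9563), Kcnj10 at 576.7 (526.1 to 534.2) and Homer1 at 22.33 (19.68 to 20.11). It was low for Rspo1 at 14.36 (18.58 to 19.05) and for the postsynaptic sum at 4532 (4825 to 4882).

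Hippocampus replicate 3, low in choroid plexus RNA, was high for Isl1 at 1.125 (0.04217 to 0.1153), Calcr at 0.7789 (0 in the others), Baiap3 at 23.54 (16.06 to 16.83), the astrocyte sum at 7741 (6835 to 6881) and the sum for GABA synthesis and transport at 2770 (2664 to 2676). It was low for Kcnh3 at 104.7 (123 to 126.3) and Ppp1r1b at 50.63 (91 to 94.17). Isl1, Calcr and Baiap3 are genes that are higher in the hypothalamus and Kcnh3 and Ppp1r1b genes that are higher in the hippocampus. Other named genes went both ways. Among hippocampus libraries Six3, Ebf3 and Nkx2-1 of the hypothalamic side were highest in replicate 3, but Pmch, Oxt and Avp were lowest. Neurod6 and Zbtb18 of the hippocampal side were highest in it. The share of neighbouring tissue in this library was not tested.

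Hippocampus replicate 2 was high for Grin1 at 754.8 (650.2 to 659), Ddn at 2674 (2361 to 2399), Ache at 80.63 (73.59 to 74.38) and Drd3 at 0.2626 (0 to 0.04327), and it held the only count of Sim1 in the hippocampus, 0.04377.

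Hypothalamus replicate 1 was high for Cux2 at 44.61 (36.45 to 37.12) and low for Scg2 at 1049 (1198 to 1206) and Itih3 at 389.1 (475.6 to 486.4). Hypothalamus replicate 2 was high for Rtn4rl2 at 0.214 (0.06677 to 0.08966), a level of few counts.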

How the results depend on the processing

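Counts of called genes over all genes tested kept within 1.5 times the values given under every alternative run, with these exceptions. Without a filter on low counts 366 and 393 genes lay above a log2 fold change of 3 (hippocampus and hypothalamus). A test against a log2 fold change of 1 itself (glmTreat) called 904 and 947. Hypothalamus replicates 1 and 2 alone gave 351 genes above 3 in the hippocampus direction, and DESeq2 called 2 genes for the region by day difference. Leaving out 1 library gave 3537 to 3829 and 3601 to 4125 calls, 1337 to 1477 and 1471 to 1662 above 1, 223 to 263 and 242 to 273 above 3, at 29 dpi 3456 to 3757 and 3728 to 3940, and 0 to 0 for region by day. With the replicate number as a block 7456 genes were called (3597 and 3859), 7355 of them shared with the 7640. Same-numbered libraries correlated at 0.0049 to 0.16, and 2 of 4 numbers matched best with themselves. The planned fit had no block, and these correlations between different tissues cannot decide whether the mice were the same. Counts of calls per list moved by more than 1.5 times 92 times over the lists, directions and alternatives. Among them, calls toward the hypothalamus for motile cilia went from 2 to 19 and for tanycytes from 2 to 6 with hypothalamus 3 and 4 alone, calls toward the hippocampus for tanycytes from 6 to 10 with hypothalamus 1 and 2 alone, for vessels from 3 to 9 without hippocampus 3, and for choroid plexus from 14 to 6 in the Sham + CD libraries. For named genes 3231 values under the alternatives kept direction and call, 36 lost the call, 16 gained it and 10 turned direction. Those that turned were Gh (-3.19; 3.47 without hypothalamus replicate 4, 1.68 at 29 dpi, 3.87 without hippocampus 3 and hypothalamus 4, 3.25 with hypothalamus 1 and 2 alone), Mbp (0.23; -0.21 and -0.27 in the last 2 settings), Npy (0.68; -0.12 with hypothalamus 3 and 4 alone) and, in the Sham + CD libraries, Igf2 (-0.23), Ace (-2.30) and Clic6 (-2.69). Gh ranged from -9.68 to 3.47 when 1 library was left out. The settings with hippocampus 3 and hypothalamus 4 left out together, and with pairs of hypothalamus libraries, were added after the data were seen. The causes were not tested. Genes under about 1 CPM rest on few counts.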

Other observations

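Some list members did not pass the filter on low counts and are given as raw counts, chosen after their values were seen. In the fit without the filter each of those named here was called, in the direction of its counts (adjusted p from 1.65e-04 for Nmu to 0.013 for Fev). Tbx19, the factor that turns on Pomc in the pituitary, had 0 counts in each hippocampus library and 9, 17, 68 and 128 in hypothalamus replicates 1 to 4. Prlh, the precursor of prolactin-releasing peptide, had 0 in the hippocampus and 3, 9, 31 and 68 in the same order of hypothalamus libraries. Nmu (neuromedin U) had 0 in the hippocampus and 9, 12, 14 and 11 in the hypothalamus, and Foxa2, a factor of floor plate derivatives, 0 and 8, 8, 5 and 2. Fev, the factor that defines serotonin neurons of the brainstem, had 0 in the hippocampus and 8, 5, 4 and 1 in the hypothalamus. Cdh3 and Steap1, both on the choroid plexus list, had 6 and 9 counts in hippocampus replicate 3, against 85 to 199 in the other hippocampus libraries and at most 9 in the hypothalamus.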
